A study of Rattus norvegicus with 12 samples.

Results

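The enzymes described here attach glutathione, glucuronic acid or sulfate to drugs, plant compounds, bile pigments and hormones in the intestinal mucosa of rats with short bowel syndrome (SBS). They are all array probes whose gene symbol names a glutathione S-transferase of a lettered class (Gst), a microsomal glutathione S-transferase (Mgst), a UDP-glucuronosyltransferase (Ugt) or a numbered sulfotransferase (Sult). The rule found 46 probes of 42 genes among 22517 probes, whose symbols name 13336 genes. Of these, 34 probes of 32 genes passed detection (p under 0.05) on 3 or more of 12 arrays and were tested, and 22 probes were detected on all 12 arrays. A further 10 probes were detected on no array: Gsta1, Gstm6, Gstt3, Ugt8, Sult1c3, Sult2a2, Sult5a1, Ugt2a1, Ugt2b1 and the Sult2b1 probe ILMN_1530418. Gstm3 was detected on 1 array and the Gstp1 probe ILMN_1530215 on 2.

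The animals were male rats of the Sprague Dawley strain (the labels write Spraque Dawley), 6 per operation as stated, and the RNA was total RNA from intestinal mucosa. In sham rats the bowel was transected and re-anastomosed, and in SBS rats 75% of it was resected. Each array of the RatRef-12 BeadChip, which carries bead-bound probes for rat transcripts, was hybridized with 1 sample: 3 sham ileal (rats 33, 34 and 35), 4 SBS ileal (rats 36 to 39), 1 sham jejunal (rat 33) and 4 SBS jejunal (rats 36 to 39). The codes were read as animals, no further allele or agent is named, and per the labels poor nucleic acids limited the samples. Age, time since the operation and the site of sampling were looked for but not given in the sources used here. Replicates are numbered in the order of those rat codes.

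Conjugation is the second phase of detoxification. Glutathione S-transferases join glutathione to reactive electrophiles, UDP-glucuronosyltransferases transfer glucuronic acid from UDP-glucuronic acid to phenols, steroids, bile acids and bilirubin, and sulfotransferases transfer sulfate from the donor PAPS. In the gut the absorptive enterocyte carries most of these enzymes, and ingested compounds meet them there before they reach the portal blood. Bulk mucosal RNA cannot tell fewer cells of a type apart from less RNA per cell.

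The labelled tissue was checked against marker genes. On all 12 arrays 5 to 7 of 7 enterocyte markers were detected, with summed levels of 14.2 to 15.2 (log2). Of 7 hepatocyte markers, 6 were detected on no array and Ttr on 3. Markers of ileal enterocytes (Slc10a2, Fabp6, Slc51a, Slc51b and Cubn, which take up and pass on bile acids or vitamin B12) summed to 14.5 to 14.8 on the 7 ileal arrays and to 10.9, 10.2 and 10.3 on SBS jejunal arrays 1, 2 and 3. Both other jejunal arrays stood nearer to the ileal ones: SBS jejunum 4 (rat 39) at 13.8, with all 5 markers detected, and the lone sham jejunal array at 12.5, with 4 detected. Pancreatic acinar markers stood out on SBS jejunum 1, at a sum of 10.2 with 6 of 8 detected, against 7.92 to 8.52 on the other arrays. Fabp6, the ileal bile acid binding protein, read 5.96, 6.15, 7.15 and 13.56 on the 4 SBS jejunal arrays and 11.50 on the sham jejunal array. The results below are therefore given with and without SBS jejunum 4 where they rest on it; results against the lone sham jejunal array cannot be had without it.

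The sequences that go with the largest differences are those just upstream of the Ugt2b genes, whose probes moved together between the jejunum and the ileum. All 7 Ugt2 member genes lie on rat chromosome 14, in the order Ugt2a1, Ugt2b, Ugt2b15, Ugt2b37, Ugt2b35, Ugt2b7 and Ugt2b1 (RefSeq, GRCr8), and 9 of the 12 protein-coding genes in that span carry Ugt2 names. The 250 bases before the annotated start of the 5 genes whose probes were detected read as below, 5′ to 3′ on the gene's strand, with the longest stretch found in all 5 in capitals.
Ugt2b, chr14:20985199-20985448, plus strand: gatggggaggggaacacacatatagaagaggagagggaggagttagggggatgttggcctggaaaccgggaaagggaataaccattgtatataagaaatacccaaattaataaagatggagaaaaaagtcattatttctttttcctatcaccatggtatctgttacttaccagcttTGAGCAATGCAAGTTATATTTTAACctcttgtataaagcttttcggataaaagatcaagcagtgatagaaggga
Ugt2b15, chr14:21122616-21122865, plus strand: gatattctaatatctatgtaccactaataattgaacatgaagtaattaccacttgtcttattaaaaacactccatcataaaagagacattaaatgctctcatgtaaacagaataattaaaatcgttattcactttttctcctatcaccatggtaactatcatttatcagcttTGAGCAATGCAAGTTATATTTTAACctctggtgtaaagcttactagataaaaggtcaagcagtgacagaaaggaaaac
Ugt2b37, chr14:21171886-21172135, plus strand: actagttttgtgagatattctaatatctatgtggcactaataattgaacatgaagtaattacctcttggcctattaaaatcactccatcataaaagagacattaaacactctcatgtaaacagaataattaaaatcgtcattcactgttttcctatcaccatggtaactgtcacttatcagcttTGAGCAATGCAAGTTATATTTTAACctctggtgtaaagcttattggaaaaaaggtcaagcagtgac
Ugt2b35, chr14:21208191-21208440, plus strand: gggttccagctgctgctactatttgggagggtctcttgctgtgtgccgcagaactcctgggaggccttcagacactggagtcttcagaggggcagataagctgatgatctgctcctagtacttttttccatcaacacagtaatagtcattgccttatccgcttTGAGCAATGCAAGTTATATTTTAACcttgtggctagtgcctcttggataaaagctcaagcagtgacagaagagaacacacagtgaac
Ugt2b7, chr14:21251285-21251534, plus strand: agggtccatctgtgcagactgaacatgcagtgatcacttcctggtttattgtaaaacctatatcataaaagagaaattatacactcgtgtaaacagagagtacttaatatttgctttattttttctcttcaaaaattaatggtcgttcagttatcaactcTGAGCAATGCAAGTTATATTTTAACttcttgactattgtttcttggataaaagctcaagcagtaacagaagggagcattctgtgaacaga

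The shared stretch is 25 bases long, and its first base lies 74, 78, 66, 87 and 90 bases before the start in that order of listing. An exact search of both strands found it in 7 of 33469 promoter windows (0.0209%), all on chromosome 14: these 5 genes, Ugt2b7l1 and LOC134478834. It has no exact match in the window of Ugt2b1, which was detected on no array, and Ugt2a1 had no window. The stretch was picked because the 5 detected genes share it, so its absence from Ugt2b1 cannot be read against detection. The Ugt2b1 window was 49.6% to 54.5% identical to those of the 5 genes. Over their whole length, the shared stretch included, the windows of the 5 genes are 53.2% to 84.4% identical, Ugt2b15 and Ugt2b37 being the closest pair. These are descriptions of letters, and no binding was measured. Since the genes are similar and probe sequences were not used here, a Ugt2b, Gsta or Gstm probe may also read a paralog.

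In SBS rats the jejunum carried far more Ugt2b RNA than the ileum. All 6 Ugt2b probes, of 5 genes, were higher on every SBS jejunal array than on every SBS ileal array, with a median difference of 3.52 on the log2 scale. Ugt2b, Ugt2b7 and the Ugt2b35 probe ILMN_1348787 passed the detection filter only through the SBS jejunal arrays, where they were high. The filter therefore favoured this direction for them, and their agreement is no separate support. Across all tested probes 9.29% differed between these groups at an adjusted p under 0.05 (4.9% higher and 4.39% lower in the jejunum), and 12.5% had groups that did not overlap. The tests were limma's moderated tests, two-sided, with Benjamini-Hochberg adjustment over 9137 probes. These tests took arrays as separate samples and set each difference against the spread between arrays. By their codes the SBS jejunal and ileal arrays come from the same rats, a pairing that these tests ignore. Fits with rat as a block are given below. Beside the Ugt2b rise the summed enterocyte markers were 14.5 to 15.2 on the SBS jejunal and 14.4 to 14.7 on the SBS ileal arrays. Replicate 4 was the lowest jejunal array for them too, and the only one within the SBS ileal range. The summed goblet cell markers were 14.9 to 15.3 on the SBS jejunal and 14.7 to 14.9 on the SBS ileal arrays, and the summed ileal markers differed as given above. T and B cell markers summed to 7.48 to 8.12 on the SBS jejunal and 8.52 to 9.50 on the SBS ileal arrays, and tuft cell markers to 5.93 to 5.98 and 6.18 to 6.42. Of 3 tuft cell markers, 0 were detected on any SBS jejunal array and 1 to 3 on the SBS ileal arrays. Enteroendocrine markers summed to 9.51 to 9.79 on the SBS jejunal and 10.6 to 11.2 on the SBS ileal arrays, colonocyte markers to 8.98 to 10.3 and 10.6 to 11.5, and pancreatic acinar markers to 8.33 to 10.2 and 8.26 to 8.28. The part of these markers in the result was not tested.

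Ugt2b7, of a family whose members glucuronidate steroids, bile acids and drugs, had the largest difference. Its level was 8.94, 10.14, 8.66 and 8.33 on the 4 SBS jejunal arrays and 5.60, 4.30, 4.29 and 4.65 on the 4 SBS ileal arrays, where only replicate 1 was detected. All 4 jejunal values lay above all ileal ones, and the fitted difference was 4.31 ± 0.54 (log2, SE; adjusted p = 0.000384). With each undetected array set to the lowest level detected on it, the jejunum was at least 16.6-fold higher; folds of other members detected on some arrays of the dimmer group are given the same way. Sham ileal arrays read 4.30, 6.69 and 4.39, with detection on replicate 2, and the sham jejunal array read 4.45, not detected.

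For Ugt2b15, in humans an androgen-conjugating enzyme, the SBS jejunal levels were 9.46, 9.48, 9.24 and 7.68 and the SBS ileal levels 6.00, 4.96, 4.30 and 5.08, detected on 3 of 4. Replicate 4 was the lowest jejunal array and still above every ileal one. The difference was 3.88 ± 0.48 (log2, SE; at least 13.5-fold, adjusted p = 0.00037), and 4.31 without SBS jejunum 4. In sham rats the jejunal array read 8.21 and the ileal arrays 4.33, 5.97 and 4.53, again with only replicate 2 detected.

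Ugt2b35 was read by a pair of probes. ILMN_1650758 gave 9.30, 9.92, 9.26 and 7.28 in the SBS jejunum and 6.01, 4.59, 4.28 and 5.36 in the SBS ileum, where replicates 1 and 4 were detected, a difference of 3.88 ± 0.62 (log2, SE; at least 13.2-fold, adjusted p = 0.00199). ILMN_1348787 gave 8.07, 8.25, 7.67 and 6.03 against 4.45, 4.33, 4.22 and 4.36, none of the latter detected, so that its difference is a bound of at least 6.71-fold (3.16 ± 0.40 on the log2 scale, adjusted p = 0.000391). Both probes gave the same direction, with no overlap between the SBS regions in either. A bound sets the mean of the bright group against the lowest level well above background on each array of the dim group, or the probe's own value where that is higher.

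For both Ugt2b35 probes the lone sham jejunal array also lay above the sham ileal arrays, but neither difference passed. ILMN_1650758 read 7.22 on the sham jejunal array and 4.30, 6.50 and 4.41 on the sham ileal arrays. ILMN_1348787 read 5.91 against 4.24, 5.08 and 4.27. Only sham ileum 2 was detected among the sham ileal arrays, for both probes.

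Ugt2b37 differed with the smallest adjusted p of the members. The 4 SBS jejunal arrays read 7.46, 8.03, 7.61 and 6.61 and the 4 SBS ileal arrays 4.62, 4.81, 4.26 and 4.50, with detection on replicate 2 alone. The groups did not overlap, and the fitted difference was 2.88 ± 0.27 (log2, SE; at least 6.21-fold, adjusted p = 4.92e-05). In sham rats the jejunal array read 6.90 and the ileal arrays 4.36, 5.00 and 4.40.

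The probe annotated to Ugt2b was detected on every jejunal and on no ileal array. SBS jejunal levels were 7.60, 7.10, 7.36 and 5.33, SBS ileal levels 4.54, 4.48, 4.30 and 4.34, and the difference was at least 4.26-fold (2.43 ± 0.39 on the log2 scale, SE, adjusted p = 0.00187). The sham jejunal array, at 6.06, lay above the sham ileal arrays at 4.29, 4.65 and 4.35. Without background correction, as in the authors' normalized values, the log2 difference of Ugt2b was 1.54 and that of Ugt2b37 was 1.87. A larger offset of 50 gave 1.49, 1.86 and, for Ugt2b35 ILMN_1348787, 2.03, and all 3 stayed called under both settings.

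**Figure D1:**
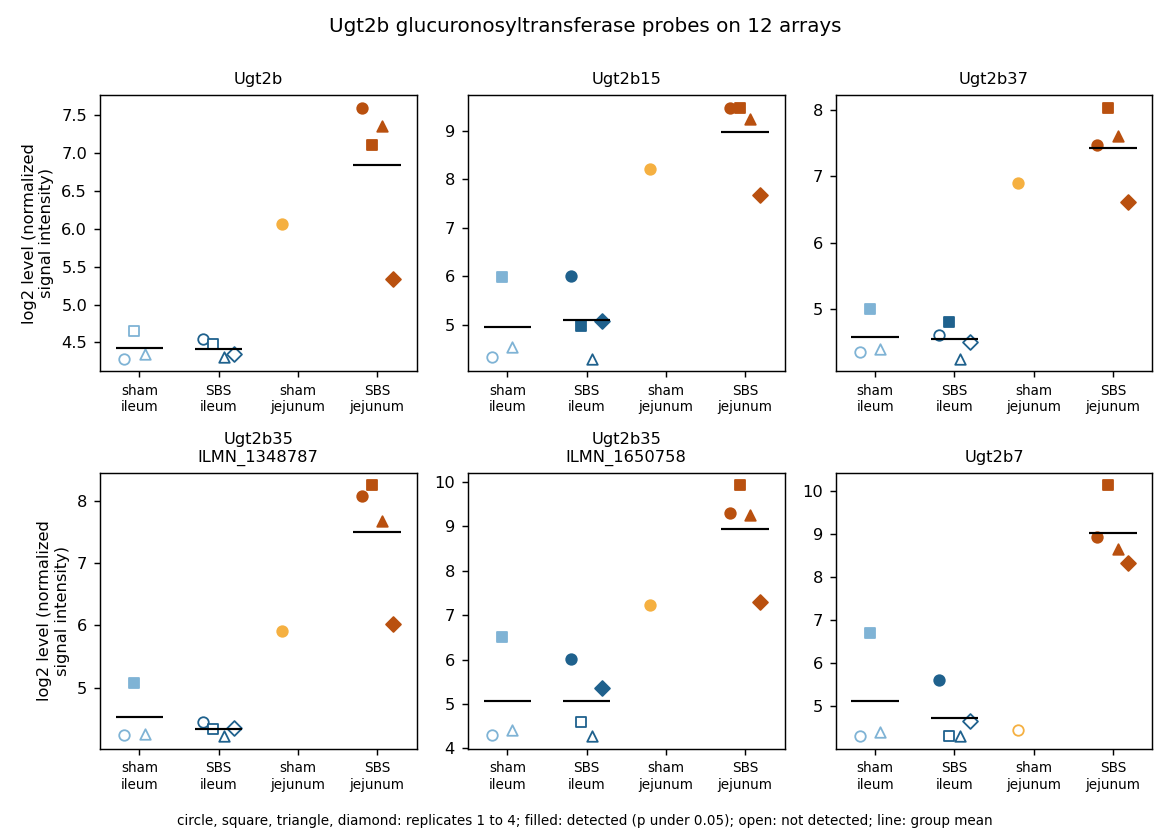
Log2 normalized signal intensity of the 6 Ugt2b probes on the 12 arrays, by group, with the mean of each group as a line. Filled symbols are detected and open symbols not detected, and symbol shape gives the replicate. Every SBS jejunal array lies above every SBS ileal array, replicate 4 (diamond) is the lowest of the SBS jejunal arrays for all 6 probes, and Ugt2b7 alone is not detected on the sham jejunal array.

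Some arrays stood out within their groups. Among the SBS jejunal arrays, where all 6 probes were detected, replicate 4 was the lowest for 6 of 6. In the sham ileum 5 of 6 probes were detected on replicate 2 and 0 on replicates 1 and 3, and in the SBS ileum 3, 2, 0 and 2 of 6 were detected on replicates 1 to 4. The median over the 6 probes was 8.51, 8.86, 8.17 and 6.95 on the SBS jejunal arrays, 5.11, 4.54, 4.29 and 4.58 on the SBS ileal arrays, 4.30, 5.53 and 4.40 on the sham ileal arrays and 6.48 on the sham jejunal array. The jejunal arrays with the lower medians, SBS replicate 4 and the sham array, were those with the higher sums of ileal markers; its part in the result was not tested. Without SBS jejunum 4 the log2 differences of the 6 probes were 2.94 to 4.54, against 2.43 to 4.31 with it. Sham ileum 2 and SBS ileum 1 had ileal marker sums within the range of the other ileal arrays.

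**Figure D2:**
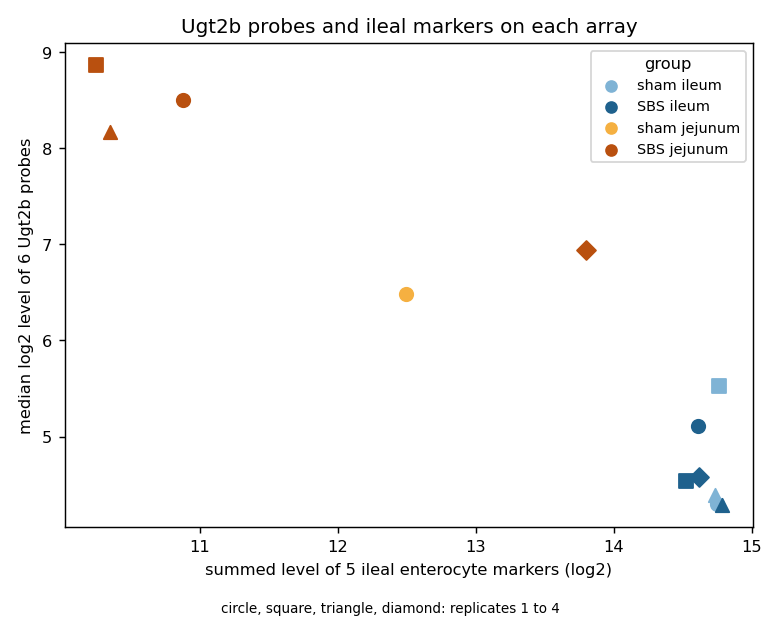
Median log2 level of the 6 Ugt2b probes (vertical axis) against the summed log2 level of 5 ileal enterocyte markers (horizontal axis), one point per array. The 7 ileal arrays lie at the lower right, SBS jejunal arrays 1 to 3 at the upper left, and SBS jejunum 4 and the sham jejunal array between them.

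The Ugt1 enzymes, among them the bilirubin-conjugating Ugt1a1, moved less and in both directions. Of 4 probes tested, 1 was higher in the SBS jejunum, 1 was lower and 2 did not pass, with a median of 0.26. Their 4 genes lie on chromosome 9 and share 1 annotated 3′ end in RefSeq, so that a probe in the shared part would read several of them.

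Ugt1a6, which conjugates small planar phenols, read 6.84, 6.59, 6.55 and 5.90 in the SBS jejunum and 5.71, 5.30, 5.00 and 5.50 in the SBS ileum. The groups did not overlap, and the jejunum was higher by 1.09 ± 0.21 (log2, SE; adjusted p = 0.00551; 0.67 without background correction and 0.70 with an offset of 50, called in both). The sham ileal arrays read 5.14, 5.19 and 4.90 and the sham jejunal array 5.45.

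Ugt1a8 was detected on no jejunal array and on 6 of 7 ileal arrays. Its levels were 5.28, 5.01, 5.08 and 4.59 in the SBS ileum, 4.52, 4.43, 4.43 and 4.60 in the SBS jejunum, 4.86, 4.78 and 4.79 in the sham ileum and 4.61 on the sham jejunal array. The SBS jejunum was at least 1.16-fold lower (−0.49 ± 0.14 on the log2 scale, SE, adjusted p = 0.047). SBS ileum 4, which was not detected, overlapped with the jejunal arrays, and the call was lost in 17 of 23 alternatives, with an adjusted p of up to 0.141. Ugt1a1, with group means of 7.55 ± 0.41 (SD, n = 4) in the SBS ileum and 7.37 ± 0.35 (SD, n = 4) in the SBS jejunum, and Ugt1a7c, at 8.21 ± 0.76 and 8.90 ± 0.36 (SD, n = 4 each), did not pass (adjusted p = 0.796 and 0.254).

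Glutathione S-transferases of the alpha class (Gsta), which are abundant in enterocytes and also reduce lipid peroxides, were all higher in the SBS jejunum: 4 of 4 probes tested, with a median of 1.90. Gsta3 read 7.42, 8.42, 7.86 and 7.64 in the SBS jejunum, 5.78, 5.76, 5.36 and 5.08 in the SBS ileum, 6.22, 5.85 and 5.69 in the sham ileum and 6.53 on the sham jejunal array. Every SBS jejunal array exceeded all other arrays, and the difference between SBS regions was 2.34 ± 0.23 (log2, SE; 5.07-fold, adjusted p = 6.66e-05).

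Gsta2 read 8.97, 8.99, 9.0 and 7.90 in the SBS jejunum, 6.99, 6.22, 5.93 and 6.84 in the SBS ileum, 6.05, 6.29 and 5.52 in the sham ileum and 7.20 on the sham jejunal array. Replicates 1 to 3 of the SBS jejunum lay within 0.03 of each other with replicate 4 below them, and the SBS regions did not overlap (2.22 ± 0.30, log2, SE; 4.66-fold, adjusted p = 0.000677). Gsta5 was high in all groups, at 12.34, 12.99, 12.57 and 12.23 in the SBS jejunum, 11.58, 10.32, 10.47 and 11.48 in the SBS ileum, 10.72, 11.60 and 10.02 in the sham ileum and 12.10 on the sham jejunal array. Its difference between SBS regions was 1.57 ± 0.36 (log2, SE; adjusted p = 0.0174). The call for Gsta5 was lost without the filter on dim probes (adjusted p = 0.0738) and without SBS ileum 2 (1.36, adjusted p = 0.0528), SBS ileum 3 (1.41, 0.0606) or SBS jejunum 2 (1.42, 0.0557).

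Gsta4, which conjugates the lipid peroxidation product hydroxynonenal, was a dim probe. It read 6.01, 6.42, 5.59 and 5.67 in the SBS jejunum, 5.58 on the sham jejunal array, 4.72, 4.85, 4.73 and 5.20 in the SBS ileum with detection on replicates 2 and 4, and 4.68, 4.61 and 4.44 in the sham ileum with detection on none. All jejunal arrays exceeded all ileal arrays, and the SBS regions differed by 1.05 ± 0.18 (log2, SE; adjusted p = 0.0034; 0.57 without background correction and 0.59 with an offset of 50, called in both).

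**Figure D3:**
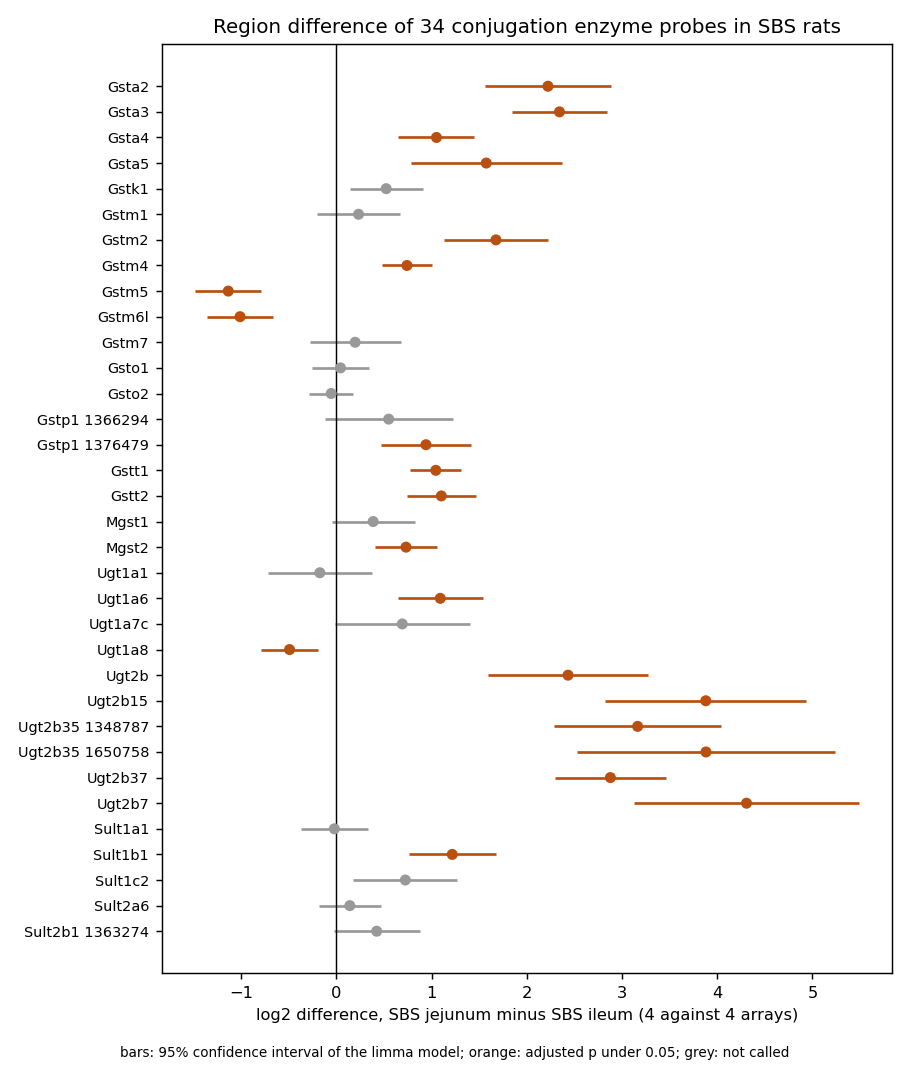
Log2 difference between SBS jejunum and SBS ileum (4 arrays each) for the 34 tested probes, ordered by family, with 95% confidence intervals of the limma model. Orange points passed at an adjusted p under 0.05 and grey points did not; 18 lie above 0, with the 6 Ugt2b probes at 2.43 to 4.31, and 3 (Gstm5, Gstm6l and Ugt1a8) lie below 0.

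The mu class (Gstm) divided. Of 6 probes tested, Gstm2 and Gstm4 were higher in the SBS jejunum, Gstm5 and Gstm6l were lower, and Gstm1 and Gstm7 did not pass. All 8 Gstm member genes lie together on chromosome 2, in the order Gstm5, Gstm6l, Gstm7, Gstm6, Gstm3, Gstm2, Gstm1 and Gstm4, so that the pair that was lower sits at one end and the pair that was higher at or near the other.

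Gstm2 read 7.05, 6.57, 7.27 and 7.43 in the SBS jejunum, 6.32 on the sham jejunal array, 5.13, 5.76, 4.89 and 5.84 in the SBS ileum and 5.59, 4.97 and 5.08 in the sham ileum. Jejunal and ileal arrays did not overlap, and the SBS regions differed by 1.68 ± 0.25 (log2, SE; 3.19-fold, adjusted p = 0.00128; 1.10 without background correction, called). Unlike for the Ugt2b probes, SBS jejunum 4 was the highest of its group.

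Gstm4 read 5.82, 5.60, 5.58 and 5.38 in the SBS jejunum, 4.94 on the sham jejunal array, 4.91, 4.89, 4.73 (not detected) and 4.89 in the SBS ileum and 5.09, 4.81 and 4.82 in the sham ileum. The sham jejunal array fell among the ileal arrays, and the SBS regions differed by 0.74 ± 0.12 (log2, SE; adjusted p = 0.00226; 0.38 without background correction and 0.39 with an offset of 50, called in both).

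Gstm5 went the other way, at 5.90, 6.15, 6.02 and 6.06 in the SBS jejunum and 7.22, 7.19, 7.19 and 7.08 in the SBS ileum. The SBS jejunum was lower by more than the range within either group (−1.14 ± 0.16, log2, SE; adjusted p = 0.00084). Sham arrays did not show this split: the sham jejunal array read 7.04 and the sham ileal arrays 7.21, 6.36 and 6.65. Gstm6l read 5.92, 5.37, 5.28 and 5.43 in the SBS jejunum, 6.78, 6.41, 6.50 and 6.38 in the SBS ileum, 6.22 on the sham jejunal array and 6.30, 6.16 and 6.52 in the sham ileum. All 4 SBS jejunal arrays lay below the other 8, and the SBS regions differed by −1.01 ± 0.16 (log2, SE; adjusted p = 0.00173; −0.63 without background correction and −0.66 with an offset of 50, called in both).

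Both theta class probes (Gstt), for enzymes that act on small halogenated compounds and sulfate esters, were higher in the SBS jejunum. Gstt1 was detected on all 5 jejunal arrays, at 5.74, 5.42, 5.28 and 5.67 in SBS and 4.85 in the sham rat. It was detected on no ileal array, with 4.44, 4.58, 4.45 and 4.47 in the SBS ileum and 4.47, 4.66 and 4.44 in the sham ileum. The SBS jejunum was thus at least 1.70-fold higher than the SBS ileum (1.04 ± 0.12 on the log2 scale, SE, adjusted p = 0.000264; 0.56 without background correction and 0.51 with an offset of 50, called in both). Gstt2 read 7.37, 8.18, 7.61 and 7.75 in the SBS jejunum, 7.00 on the sham jejunal array, 6.69, 6.72, 6.33 and 6.76 in the SBS ileum and 6.67, 6.62 and 6.56 in the sham ileum. Jejunal arrays all exceeded ileal arrays, with a difference of 1.10 ± 0.17 between SBS regions (log2, SE; adjusted p = 0.00132).

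Microsomal transferase 2 (Mgst2), which can form the cysteinyl leukotriene C4, was higher in the SBS jejunum. Its levels were 11.77, 12.04, 11.53 and 11.78 there, 10.94, 11.15, 10.81 and 11.29 in the SBS ileum, 11.24 on the sham jejunal array and 10.80, 10.47 and 10.42 in the sham ileum. The SBS regions did not overlap and differed by 0.73 ± 0.15 (log2, SE; adjusted p = 0.00898). Mgst1, at 11.13 ± 0.43 in the SBS ileum and 11.51 ± 0.25 in the SBS jejunum (SD, n = 4 each), did not pass (adjusted p = 0.314).

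The kappa and omega classes did not pass in any of the 5 comparisons at the main settings. With array weights the limma test called Gsto2 lower in the SBS than in the sham ileum (−0.33, adjusted p = 0.0489). In that setting 10.2% of all probes passed. Gstk1, the mitochondrial and peroxisomal enzyme, read 8.44, 9.12, 8.80 and 8.77 in the SBS jejunum, 7.99, 8.47, 8.13 and 8.46 in the SBS ileum, 8.19 on the sham jejunal array and 8.38, 7.90 and 8.33 in the sham ileum. SBS jejunum 1 lay within the SBS ileal range, and the difference was 0.52 (95% confidence interval 0.14 to 0.90, adjusted p = 0.095). Within rats 36 to 39 the jejunum was higher by 0.46, 0.65, 0.67 and 0.31, and with rat as a block the difference passed (adjusted p = 0.0193 as a random and 0.0219 as a fixed block). Gsto2, a dehydroascorbate reductase, was near the limit of detection: 4.99, 4.94 and 5.07 in the sham ileum, 4.89, 4.57, 4.59 and 4.67 in the SBS ileum, 4.81 on the sham jejunal array and 4.57, 4.71, 4.57 and 4.65 in the SBS jejunum. It was detected on all 4 sham arrays and on 1 of 4 in each SBS group. Gsto1 had group means of 10.17 to 10.41, and its difference between SBS regions was 0.04 (95% confidence interval −0.26 to 0.35).

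Of the sulfotransferases, 1 of 5 tested probes passed, with a family median of 0.42. Sult1b1, which sulfates thyroid hormones and small phenols, read 7.69, 7.58, 7.32 and 6.65 in the SBS jejunum, 6.36 on the sham jejunal array, 6.36, 5.90, 6.21 and 5.92 in the SBS ileum and 5.41, 5.75 and 5.56 in the sham ileum. SBS jejunum 4 was the lowest of its group and still above the SBS ileum, and the difference was 1.22 ± 0.21 (log2, SE; adjusted p = 0.00326; 1.44 without SBS jejunum 4). Sult1a1, Sult1c2, Sult2a6 and the Sult2b1 probe ILMN_1363274 had differences of −0.02 to 0.72 and adjusted p of 0.105 to 0.964. With rat as a block Sult1c2 passed, at 0.72 (adjusted p = 0.0288 as a random and 0.0292 as a fixed block), with within-rat differences of 0.65, 1.15, 1.07 and 0.03.

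Over all families, then, 21 of 34 probes differed between the SBS regions, 18 higher and 3 lower in the jejunum. Of all tested probes 9.29% differed, 4.9% higher and 4.39% lower. Groups did not overlap for 20 of 34 members and for 12.5% of all tested probes. The counts of members include Ugt2b, Ugt2b7, Ugt2b35 ILMN_1348787 and Gstt1, which passed the detection filter only through the SBS jejunal arrays. Without the filter 18 of 46 members passed, beside 2.85% of all probes. The median difference was 0.73 among the members and −0.01 among all tested probes. Differences were positive for 28 of 34 members and for 4385 of 9137 tested probes. When arrays were scaled to a common median instead, the median of the members was 0.88 and that of all probes 0.01, and the share of higher calls among all probes was 67.8% in place of 52.8%. Without SBS jejunum 4, 20 probes passed; the call lost was Ugt1a8 (adjusted p = 0.0508). With rat as a replicate block 23 members passed, while the share of all probes rose from 9.29% to 16.6% (random block) or 13.9% (fixed block).

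The same regions could be compared in sham rats only through 1 jejunal array, which was taken to vary like the other groups. Of all probes 0.624% passed (0.394% higher in the jejunum), and of the members 1 of 34. This was Ugt2b37, higher on the sham jejunal array by 2.32 ± 0.44 (log2, SE; at least 4.33-fold, with 1 of 3 sham ileal arrays detected; adjusted p = 0.0367); the call was lost in 9 of 22 alternatives, among them each left-out sham ileal array, and the difference was 1.42 without background correction and 1.40 with an offset of 50. Ugt2b15 differed by 3.26 ± 0.79 (adjusted p = 0.103 without a block and 0.0305 with rat as a random block). At an unadjusted p under 0.05 there were 10 of 34 members, all higher in the jejunum, against 8.97% of all probes in either direction and 5.3% higher. Of the 18 members higher in the SBS jejunum, the sham jejunal array lay between the mean of the SBS ileum and that of the SBS jejunum for 16, at a median of 0.40 of the way; the exceptions were Gstp1 and Ugt2b7. Of all 849 probes called in that comparison it lay between for 62.9%, at a median of 0.47. Whether the region difference itself differed between sham and SBS rats is the same test as the difference of the resection effects, given below.

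Resection was next compared within the jejunum, 4 SBS arrays against the 1 sham array; these SBS arrays are the same as in the region comparison. Of all probes 1.47% passed, 0.635% being higher after resection. Of the members 2 of 34 passed, both higher after resection: the Gstp1 probe ILMN_1376479 and Ugt2b7.

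Gstp1, the pi class transferase, known in rat liver as a marker of preneoplastic foci, was higher after resection in this probe. ILMN_1376479 read 10.41, 10.62, 10.01 and 9.94 in the SBS jejunum and 8.35 on the sham jejunal array, a difference of 1.89 ± 0.35 (log2, SE; 3.71-fold, adjusted p = 0.0209). In the ileum the SBS arrays read 9.44, 9.48, 8.84 and 9.46 and the sham arrays 8.81, 8.47 and 8.0. The ileal groups did not overlap, but the difference of 0.88 ± 0.24 did not pass (1.84-fold, adjusted p = 0.0742; 0.01 to 0.351 over 23 alternatives, of which 4 made the call). Between the SBS regions this probe was also higher in the jejunum, by 0.94 ± 0.22 (adjusted p = 0.0181); that call was lost without the filter on dim probes (0.0614), without rat 36 (0.059), without SBS ileum 3 (0.79, 0.0564) and without SBS jejunum 2 (0.81, 0.0565).

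The other tested Gstp1 probe disagreed in size. ILMN_1366294 read 6.95, 6.46, 6.54 and 7.11 in the SBS jejunum, 5.59 on the sham jejunal array, 6.27, 5.69, 5.79 and 7.13 in the SBS ileum and 5.95, 6.55 and 5.64 in the sham ileum. Its SBS jejunal arrays too lay above the sham jejunal array, by 1.18 ± 0.49 (log2, SE; adjusted p = 0.344), but the ileal groups overlapped (0.17, adjusted p = 0.846) and so did the SBS regions (0.55, adjusted p = 0.364; 0.0474 with rat as a fixed block).

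**Figure D4:**
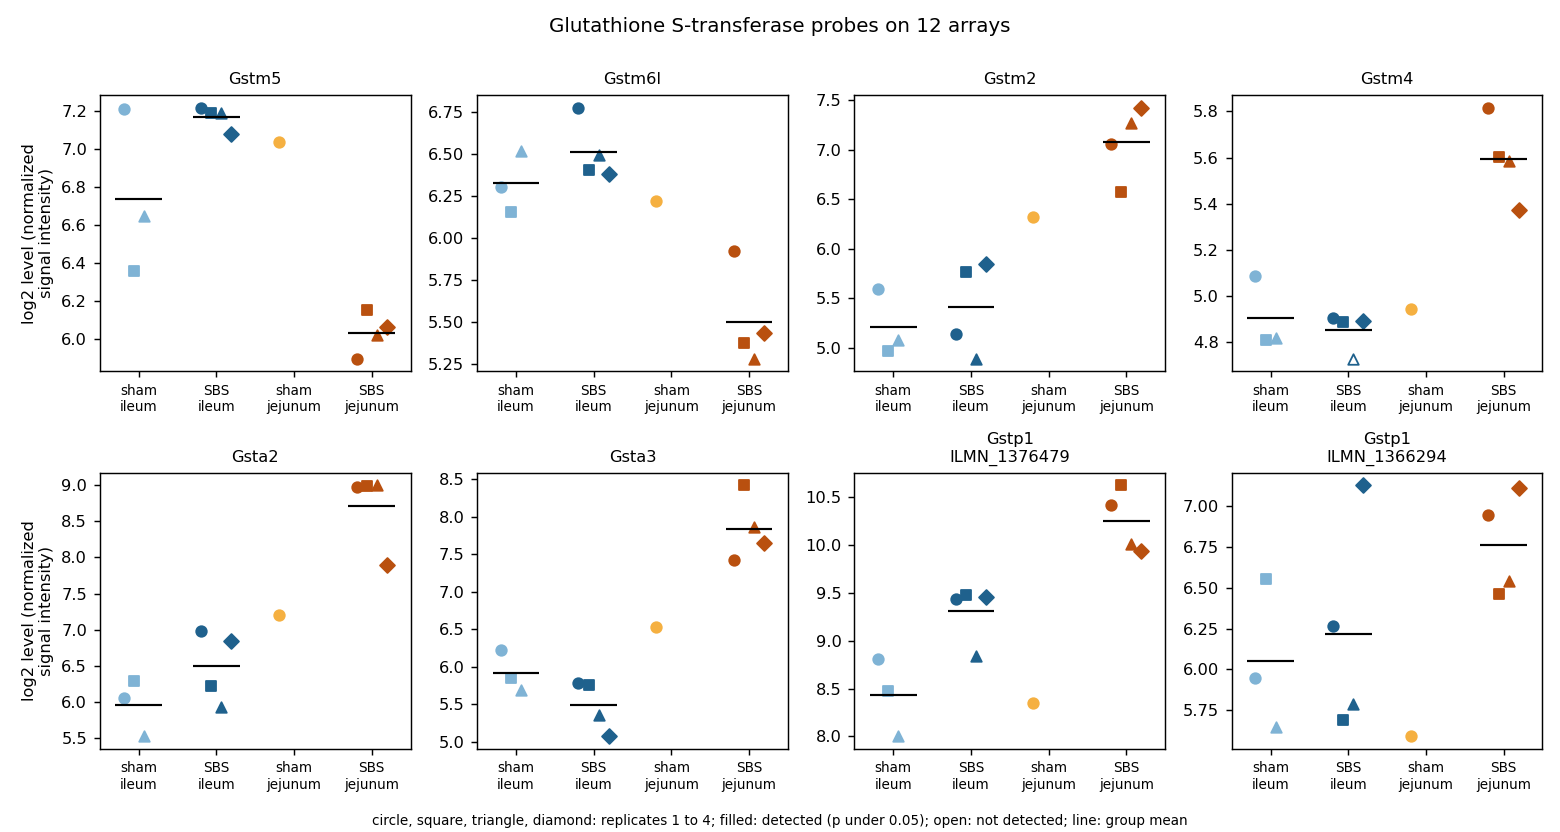
Log2 normalized signal intensity of 8 glutathione S-transferase probes on the 12 arrays, by group, with the mean of each group as a line; filled symbols are detected, open symbols not detected. Gstm5 and Gstm6l are lowest in the SBS jejunum, Gstm2, Gstm4, Gsta2 and Gsta3 are highest there, and the Gstp1 probes ILMN_1376479 and ILMN_1366294 differ in whether the ileal groups separate.

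The upstream sequence of Gstp1 is shown because it holds a match to the core of the antioxidant response element, the site named for stress-inducible conjugation genes. The 250 bases before its start read, with the match in capitals:
Gstp1, chr1:210769706-210769955, minus strand: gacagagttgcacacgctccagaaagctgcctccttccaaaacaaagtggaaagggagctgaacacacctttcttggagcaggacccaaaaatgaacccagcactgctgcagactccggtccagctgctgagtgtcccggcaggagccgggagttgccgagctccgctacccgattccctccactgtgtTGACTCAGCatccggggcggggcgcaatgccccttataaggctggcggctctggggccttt

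The match begins 61 bases before the start. The letters searched were TGACNNNGC on both strands, and 10.1% of all promoter windows hold them. Of the 42 member genes 37 had a window, and 4 of these (10.8%) hold the motif: Gsta3, Gstm5, Gstm7 and Gstp1. That share is near the background, and the motif's part in any difference was not tested.

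Ugt2b7 was the other member higher after resection in the jejunum, and it passed the detection filter only through the SBS jejunal arrays. With the sham jejunal array at 4.45, not detected, and the SBS arrays at 8.33 to 10.14, the difference was at least 19.6-fold (4.57 ± 0.86 on the log2 scale, SE, adjusted p = 0.0227). The sham jejunal array comes from rat 33, on whose ileal array Ugt2b7 was also not detected. On the sham jejunal array the summed ileal markers (12.5) stood between SBS replicate 4 (13.8) and the other jejunal arrays (10.2 to 10.9). With a lone sham array, rat, position and operation cannot be told apart. In the ileum Ugt2b7 differed by −0.41 ± 0.58 (adjusted p = 0.772), and by 0.37 without sham ileum 2, the single sham ileal array on which it was detected.

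Both calls after resection in the jejunum rest on the spread lent by other groups. Neither held when only the jejunal arrays were fitted (adjusted p = 0.108 for Gstp1 and 0.073 for Ugt2b7) or when dim probes were kept (0.0698 and 0.102). Without SBS jejunum 4, 7 members passed, all higher after resection: Ugt2b7 (4.80), Ugt2b35 ILMN_1348787 (2.09), Gsta2 (1.79), Ugt2b (1.29), Ugt1a6 (1.22), Sult1b1 (1.18) and the Gstp1 probe ILMN_1376479 (2.0), as log2 differences. Of all probes 1.96% passed in that setting, against 1.47% with all arrays. At an unadjusted p under 0.05 there were 15 of 34 members, 13 of them higher, against 11.9% and 5.77% of all probes. The members' median difference was 0.58, against 0.01 over all probes. Differences were positive for 26 of 34 members and for 4698 of 9137 tested probes. The members include Ugt2b, Ugt2b7, Ugt2b35 ILMN_1348787 and Gstt1, which passed the detection filter only through the SBS jejunal arrays. The filter favoured a higher value after resection for them, so their direction is no separate support.

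In the ileum no member passed the limma test between 4 SBS and 3 sham arrays, where 2.94% of all probes did. At an unadjusted p under 0.05 there were 6 of 34 members (17.6%), near the 16.8% of all probes, and 6 of 34 had groups that did not overlap (19.1% of all probes). Differences were positive for 22 of 34 members and for 5036 of 9137 tested probes. The median difference was 0.15 among the members and 0.03 among all probes. When arrays were scaled to a common median these became −0.01 and −0.09, so that the direction of the members' median rests on the scaling. Summed colonocyte markers were 10.6 to 11.5 on the SBS ileal and 8.58 to 10.1 on the sham ileal arrays; their part in the members' values was not tested.

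The effects of resection in jejunum and ileum were then tested against each other. Ugt2b, Ugt2b7, the Ugt2b35 probe ILMN_1348787 and Gstt1 passed the detection filter only through the SBS jejunal arrays. The filter favoured a larger effect in the jejunum for them, so their direction is no separate support. No member passed where 0.197% of all probes did, by limma, and 10 of 34 had an unadjusted p under 0.05 against 5.49% of all probes. The widest gap was that of Ugt2b7, at 4.99 on the log2 scale (adjusted p = 0.127), followed in size by the Ugt2b35 probe ILMN_1348787 at 1.79 (0.864). Without SBS jejunum 4 the latter was 2.28 (adjusted p = 0.0387), and Gstm5 was −1.67 (0.0137) without sham ileum 1, against −1.43 (0.128) with all arrays.

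**Figure D5:**
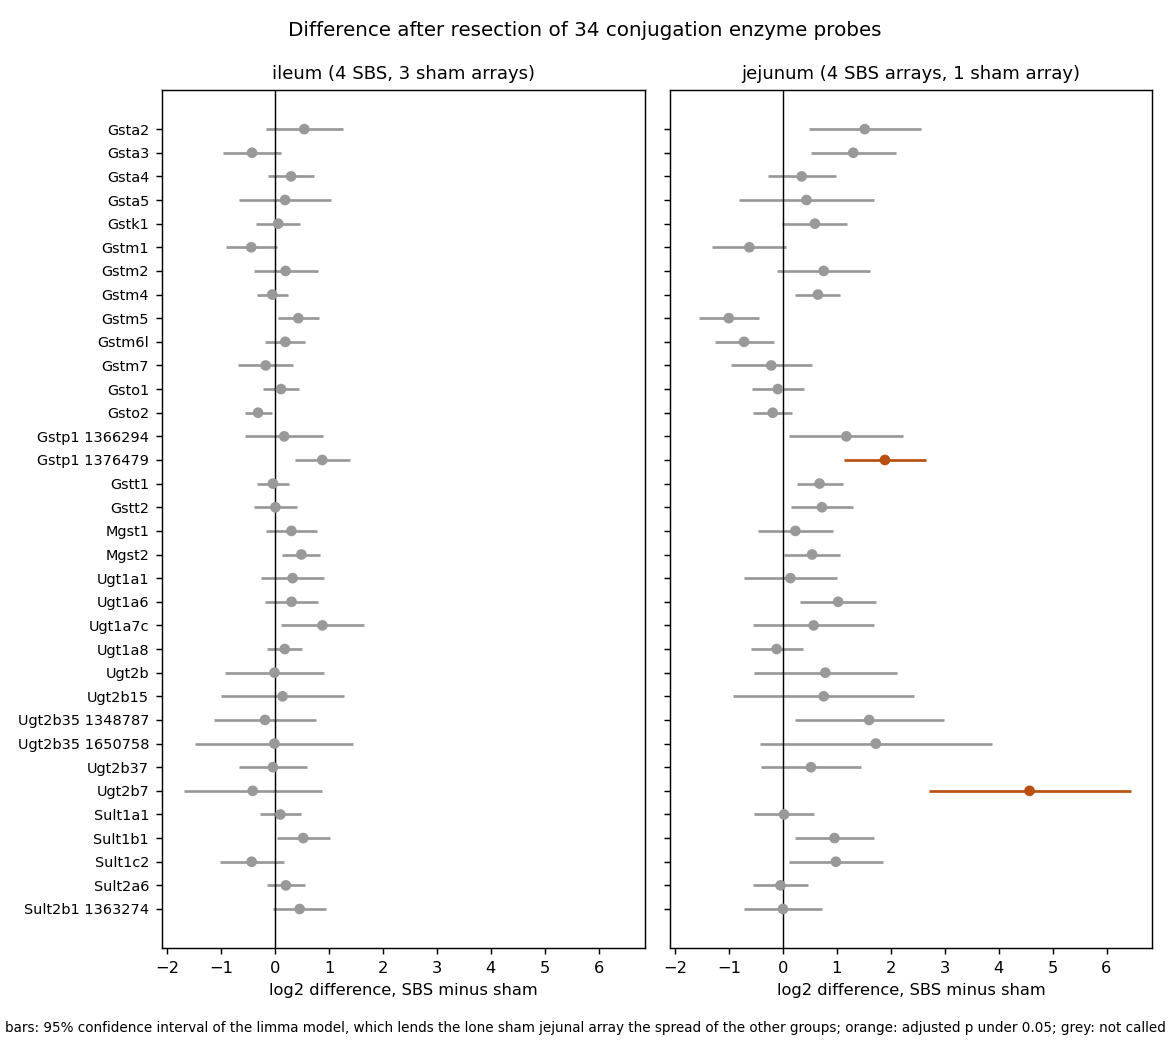
Log2 difference between SBS and sham arrays for the 34 tested probes in the ileum (left; 4 against 3 arrays) and in the jejunum (right; 4 against 1), with 95% confidence intervals of the limma model. Orange points passed at an adjusted p under 0.05: none in the ileum, and the Gstp1 probe ILMN_1376479 (1.89) and Ugt2b7 (4.57) in the jejunum.

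Enzymes need their cosubstrates, so genes that supply or use them were counted for the SBS jejunum against the SBS ileum. In that comparison 9.29% of all tested probes passed, the share to set beside the count of each list below. Of 8 measured genes of sulfate supply, 2 were higher, 2 were lower and 4 did not pass, with a median of −0.25. Papss2, which makes the sulfate donor PAPS, read 11.59, 11.03, 11.35 and 11.58 in the SBS jejunum and 8.10, 5.89, 5.70 and 7.08 in the SBS ileum, a difference of 4.70 ± 0.65 (log2, SE; 25.9-fold, adjusted p = 0.000733). In sham rats it read 7.37 in the jejunum and 4.62, 7.79 and 5.24 in the ileum, where the highest was again replicate 2.

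Bpnt1, which breaks down the spent donor PAP, differed the same way. It read 10.89, 10.58, 10.65 and 10.22 in the SBS jejunum against 8.34, 7.74, 7.47 and 7.97 in the SBS ileum (2.70 ± 0.22, log2, SE; adjusted p = 1.96e-05). The apical sulfate transporter Slc13a1 was lower in the SBS jejunum (−1.34 ± 0.14, adjusted p = 0.000109) and on the sham jejunal array (−2.27, adjusted p = 0.000979), and higher after resection in the jejunum (1.14, adjusted p = 0.027). Papss1 was lower in the SBS jejunum (−0.68, adjusted p = 0.039).

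Of 12 measured genes of glutathione supply and recycling, 4 were higher and 3 lower in the SBS jejunum, with a median of 0.48. The higher ones were the modifier subunit of glutamate-cysteine ligase Gclm (0.96), glutathione synthetase Gss (0.81), the peroxidase Gpx4 (1.02) and 5-oxoprolinase Oplah (0.60). The lower ones were the catalytic subunit Gclc (−0.79), cystathionine gamma-lyase Cth (−1.20) and the dipeptidase Dpep1 (−2.32), which cleaves cysteinylglycine. The 2 subunits of the ligase that makes the first step of glutathione synthesis thus differed in opposite directions.

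Of 5 genes of glucuronate supply, 1 was lower in the SBS jejunum, the glucuronidase Gusb (−0.76), and 4 did not pass, at a median of 0.08. For this and the following lists too, the share of all probes between the SBS regions was 9.29%. The 5 measured genes listed under conjugate export were the transporters Abcc3, Abcc5, Abcc6 and Abcg2 and the GTPase Rala. Of these 2 were lower, Abcg2 (−1.59 ± 0.19, adjusted p = 0.000316) and Abcc3 (−1.08), and 3 did not pass. Other conjugating and hydrolysing enzymes were higher for 3 of 6: the histamine methyltransferase Hnmt (2.37), the epoxide hydrolase Ephx2 (1.10) and the arsenite methyltransferase As3mt (0.60). Of 9 genes listed under regulators, among them the enzyme Nqo1, the bile acid receptor Nr1h4 (−1.19) and the intestinal factor Cdx2 (−0.60) were lower and 7 did not pass. After resection in the ileum 1 of 12 glutathione genes, Gpx1 (−0.86), and 1 of 5 glucuronate genes, Ugp2 (0.72), passed, where 2.94% of all probes did. In the jejunum 1 of 12 glutathione genes was higher, Gpx4 (1.34), and 1 was lower, Dpep1 (−1.67). Of 8 sulfate genes 1 passed there, Slc13a1, where 1.47% of all probes did. No gene of the other lists passed after resection.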

How the data were processed

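The authors' deposited signal table held mean bead signal intensity per probe, not normalized, with a detection p-value per probe and array. The authors' log2 values, deposited as a series matrix and quantile normalized, lay within 0.012 of quantile-normalized log2 signals. The scanner software is not given in the sources used here. With limma 3.58.1 in R 4.3.3, neqc corrected the background by means of the detection p-values (offset 16), applied quantile normalization and took log2. Probes with a detection p under 0.05 on at least 3 of 12 arrays were kept (9137). A single fit with 1 mean per group over 12 arrays gave 5 comparisons by lmFit and eBayes, two-sided, with adjustment over all kept probes and calls at an adjusted p under 0.05. The code was tested on simulated data. The number of arrays limits the precision.

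Symbols came from the platform annotation, where 8730 probes have none; 13747 of 13787 annotated probes matched RefSeq by Entrez ID. Promoter windows are RefSeq's (GRCr8). Values on every array are given for members called in any comparison and, in each family, for the one with the smallest F-test p over the 4 groups; all others are summarised. A listed gene with several probes was read by the brightest. The members and gene lists were chosen with earlier results of these data known. Rat codes pair the SBS ileal and jejunal arrays: deviations from the group means of the same rat correlated at 0.66, 0.467, 0.193 and 0.444. Alternatives were other normalizations, offsets and filters, array weights, only the arrays compared, a replicate block, and arrays left out.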

Additional observations from a re-analysis of the deposited data

Results flagged for a closer look

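Of 68 groups of 4 arrays tested for a stray array, 5 had one, where chance gives about 1 in 20. SBS jejunum 4 was low for Gsta2, at 7.90 against 8.97 to 9.0 on the other arrays, and for Ugt2b15, at 7.68 against 9.24 to 9.48. SBS ileum 3 was low for Gstm4 (4.73 against 4.89 to 4.91), for the Gstp1 probe ILMN_1376479 (8.84 against 9.44 to 9.48) and for Gstt2 (6.33 against 6.69 to 6.76). SBS jejunum 4 is the jejunal array with the highest sum of ileal markers.

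For 5 members every SBS array moved one way from the sham mean in the jejunum and the opposite way in the ileum, as did 2.87% of all tested probes, and no such difference passed the limma test of the difference. The jejunal minus the ileal effect was 1.73 for Gsta3 (1.30 and −0.43, adjusted p = 0.244), 0.70 for Gstm4 (0.65 and −0.05, adjusted p = 0.555) and 1.79 for the Ugt2b35 probe ILMN_1348787 (1.60 and −0.19, adjusted p = 0.864). It was −1.43 for Gstm5 (−1.0 and 0.43, adjusted p = 0.128) and −0.91 for Gstm6l (−0.72 and 0.19, adjusted p = 0.569). The jejunal side of each rests on 1 sham array. For ILMN_1348787 no SBS ileal array and 1 of 3 sham ileal arrays was detected, and for Gstm4 SBS ileum 1 lay at the sham mean of 4.91, so that their ileal directions cannot be read.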

How the results depend on the processing

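The number of members called between the SBS regions was 18 to 23 under every alternative, 23 with the rat as a random or a fixed replicate block, and 18 to 22 with 1 array left out. With 1 array left out the share of all probes was 6.5% to 10.2%. In the ileum, 0 members were called after resection, 4 with array weights (11.8% of members, beside 10.2% of all probes), and 2 with the fixed replicate block (5.88%, beside 8.61%). With 1 array left out 0 to 2 were called there, beside 0.252% to 3.61% of all probes. In the jejunum 2 were called, and 0 without the filter (0.32% of all probes) or with only the jejunal arrays (0.23%). The fixed replicate block gave 4 (11.8%, beside 4.13%). With 1 array left out 2 to 7 were called, beside 1.03% to 1.96% of all probes, and the 7 were those without SBS jejunum 4 (1.96%). For the difference of the effects the range with 1 array left out was 0 to 1, beside 0.0876% to 0.328% of all probes. In sham rats 1 was called (0.624% of all probes), and 0 in the series matrix (0.558%), with the offset of 50 (0.635%) and without the filter (0.191%). Called members numbered 2 with only the arrays compared (1.73% of all probes), array weights (2.92%) and the random (1.69%) or fixed (0.624%) replicate block. With 1 array left out 0 to 3 were called, beside 0.296% to 1.09% of all probes. The cause was not tested. Ugt2b7 after resection in the ileum reversed to 0.37 without sham ileum 2, in a range of −0.83 to 0.37 with 1 array left out. Scaling by medians moved the median of all probes from 0.034 to −0.089 in the ileum, from −0.006 to 0.16 for the difference of effects and from −0.018 to −0.137 between the sham regions. Same-numbered sham and SBS ileal arrays did not deviate together (0.208, −0.08 and 0.034), and share only a number. Dim probes near background carry the least certain differences.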
